A study of Mus musculus with 24 samples.

Results

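The step in gene expression between day 6 and day 9 of differentiation was compared between Atf3 knockout (KO) and wild-type (WT) mouse embryonic stem cells. The 12 libraries of these days, of 24 in the series, were used: 3 of KO and 3 of WT cells at day 6, and 3 of KO and 3 of WT cells at day 9. For each gene, the WT step (WT day 9 minus WT day 6) was subtracted from the KO step (KO day 9 minus KO day 6) on the scale of log2(FPKM + 1). FPKM is fragments per kilobase of gene, with a scaling factor for each library. The 13505 genes, of 53465 in the table, that reached 1 FPKM in 3 or more of the 12 libraries were tested. A gene could pass this filter through the 3 libraries of a single group, which favours list members high in that group. A difference between the steps above 0 means that KO cells moved up relative to WT cells after day 6, either because a deficit in KO cells closed or because an excess opened.

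The study asked how loss of Atf3 bears on the formation of mesoderm and endothelium. Per the labels, the stem cells of both genotypes were kept with leukaemia inhibitory factor, the GSK3 inhibitor CHIR99021 and the MEK inhibitor PD0325901 before they were differentiated. The sources used here do not give the differentiation medium, the edited part of Atf3 or the number of KO clones. Whether replicate libraries stem from separate cultures is not stated in the labels. The p-values therefore measure spread among libraries that may be technical.

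Atf3 is a member of the ATF/CREB transcription factors that cells switch on under stress. It binds cyclic AMP response elements and AP-1 sites, alone or paired with Jun proteins. Cells leaving pluripotency pass through a state like the primitive streak, marked by T (Brachyury), before they take up fates such as definitive endoderm, paraxial mesoderm, heart muscle, endothelium and embryonic blood. In the embryo, streak genes are switched on only for a time.

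The reads recovered from the FPKM values were 7855607 to 25274409 per library, with a median of 16035988. A read per kilobase of gene stood for 0.229 FPKM in WT library 3 of day 6, with 7855607 reads. It stood for 0.0286 FPKM in WT library 1 of day 9, with 25274409 reads. The deposited scaling thus did not follow the read totals alone. Both day 6 groups held a library that stood apart. In WT library 3 of day 6, 45.6% of reads lay in 3 rRNA-type genes, against 4.42% to 18.6% in the other 11 libraries, and 4272086 reads were left outside them. KO library 3 of day 6 had the highest Atf3 level among the KO libraries and far lower globin levels than KO libraries 1 and 2. The mean variance of a gene over the 3 libraries of a group, in squared log2 units, was 0.279 in KO and 0.227 in WT cells at day 6, and 0.109 in KO and 0.152 in WT cells at day 9. Hand1, a factor of lateral and extraembryonic mesoderm, averaged 279 FPKM in KO and 215 FPKM in WT cells at day 6. Pou5f1, a factor of pluripotent cells, averaged 21.6 FPKM in KO and 31.9 FPKM in WT cells at day 6, and 30.3 FPKM in KO and 26.4 FPKM in WT cells at day 9.

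In KO cells Atf3 itself, on mm10 chromosome 1, 191170296 to 191218039, minus strand, was lower at both days. It read 0.343, 0.578 and 4.17 FPKM in KO libraries at day 6, against 12.7, 23.99 and 10.9 FPKM in WT libraries. The values were 0.355, 0.714 and 0.532 FPKM in KO libraries at day 9, against 13.7, 15.1 and 16.1 FPKM in WT libraries. No KO library reached a WT library of the same day, and KO library 3 of day 6 came closest. The KO minus WT difference was -2.84 at day 6 (limma with Benjamini-Hochberg adjustment, adjusted p = 0.0358) and -3.38 at day 9 (limma, adjusted p = 0.0103). The exact permutation test of 3 against 3 libraries, two-sided, gave p = 0.1 at each day, the smallest it allows. The difference between the steps was -0.54 (limma, adjusted p = 0.953), and 0.07 without KO library 3 of day 6.

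Few genes passed the comparison of the steps, and the balance of directions depended on KO library 3 of day 6. With limma on log2(FPKM + 1), 4 groups and a two-sided threshold of 0.05 after Benjamini-Hochberg adjustment over all genes tested, 7 genes passed, or 0.0518% (6 higher, 0.0444%, and 1 lower, 0.0074%). An unadjusted p under 0.05 was reached by 668 genes (4.95%), 394 up and 274 down of the 13505 tested. The counts up and down at an unadjusted p given for lists below stand against these. The log2(FPKM + 1) scale understates the change of low genes. In bulk RNA, fewer cells of a type and less RNA per cell cannot be told apart. With the spread estimated over all 24 libraries and 8 groups, those of day 0 and day 3 included, whose mean variance was 0.0389 to 0.112, 150 genes passed, or 1.11% (95 higher, 0.703%, and 55 lower, 0.407%). Mean variance in the 4 groups compared was 0.109 to 0.279, so this fit draws spread in part from mostly tighter groups outside the comparison. Calls with 24 libraries, counts within lists included, are therefore the more liberal. The 7 genes are among the 150, and the differences themselves are the same in both fits. Adjusted p-values below are from the 12 libraries unless 24 are named, and all standard errors are from the 12.

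The counts rested on single libraries. The count of 7 was 0 without KO library 2 or WT library 1 of day 6 or without any 1 of the 3 WT libraries of day 9 (466 to 609 genes at an unadjusted p under 0.05). It was 2 without WT library 3 of day 6, 3 without KO library 2 of day 9, 12 without WT library 2 of day 6, 25 without KO library 3 of day 9 and 38 without KO library 3 of day 6 (12 higher and 26 lower). Without library 3 of both day 6 groups it was 14 (5 higher and 9 lower). The count of 150 was 91 without WT library 3 of day 6, 224 without KO library 3 of day 6 (90 higher and 134 lower) and 208 without both. The sign of the difference was the same in all of these fits for each of the 150 genes, and the 7 genes passed in each fit with 24 libraries. These genes were picked for their differences in the same libraries, so the kept signs and calls are not separate support.

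**Figure D1:**
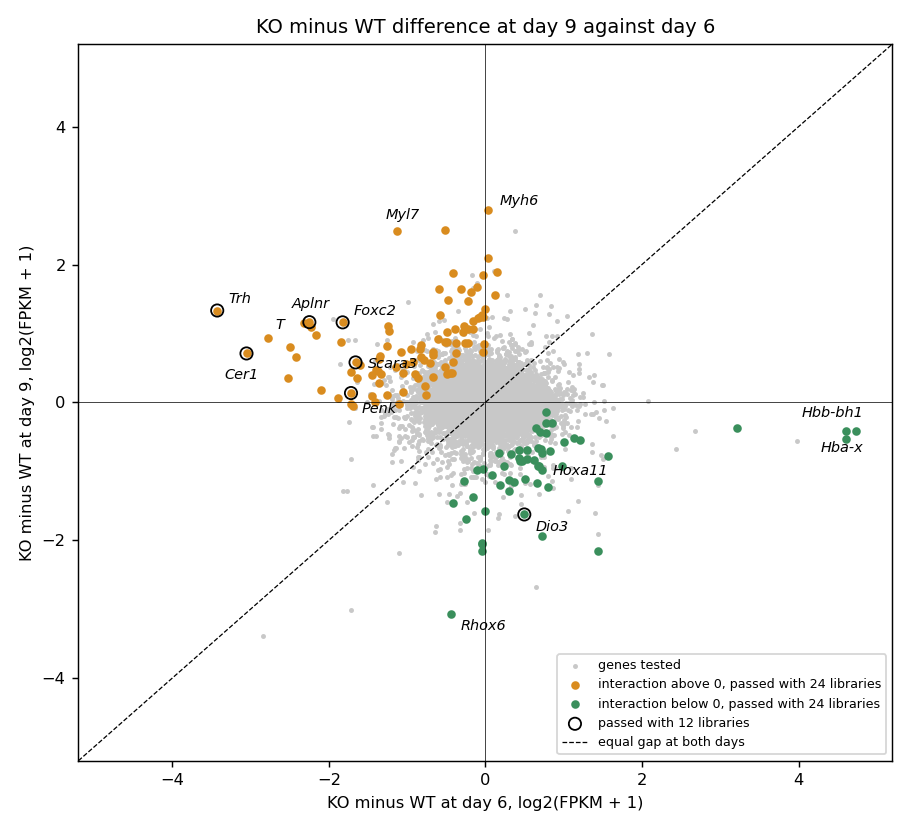
KO minus WT difference of each tested gene at day 6 (horizontal axis) and at day 9 (vertical axis), in log2(FPKM + 1). All 13505 genes are drawn, with the 150 genes that passed with 24 libraries coloured and the 7 that passed with 12 marked. Trh and Cer1 lie far to the left, at -3.43 and -3.05, Myh6 lies high on the vertical axis, at 2.79, and Hbb-bh1 lies far to the right, at 4.73.

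The 150 genes were split by the day that held the larger gap, as a description of the values that make up the tested difference. A gap was put at day 6 where the absolute KO minus WT difference there was at least 2 times that at day 9, and at day 9 in the reverse case. Of the 95 genes that moved up in KO cells, 37 had their gap at day 6, 32 had it at day 9 and 26 had gaps of opposite sign at both days. Of the 55 that moved down, 10 had their gap at day 6, 22 had it at day 9 and 23 had opposite gaps. In 27 of the 37 upward genes with their gap at day 6, the WT step was larger than the KO step, so that WT cells came towards the KO level more than KO cells towards the WT level. Some of the 37, such as Trh and Cer1, went past closing the gap, with KO over WT at day 9. In 2 of the 32 genes that parted upward at day 9 the WT step was the larger, and in 18 of the 22 that parted downward.

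Trh and Cer1 had the highest differences between the steps of the 150 genes, with the larger gap at day 6. Trh, which encodes the precursor of thyrotropin-releasing hormone (chromosome 6, 92242061 to 92244650, minus strand), read 57.0, 20.7 and 21.8 FPKM in KO libraries at day 6, against 334, 202 and 524 FPKM in WT libraries. It read 64.8, 64.5 and 54.4 FPKM in KO libraries at day 9, against 15.2, 28.04 and 30.8 FPKM in WT libraries. All KO values lay under all WT values at day 6 and over them at day 9. The difference between the steps was 4.76 ± 0.61 (standard error, limma adjusted p = 0.0224). It was made of a KO step of 1.02 (limma adjusted p = 0.285) and a WT step of -3.74 (limma adjusted p = 7.56e-04).

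Cer1, a secreted inhibitor of Nodal, BMP and Wnt signals made by anterior endoderm (chromosome 4, 82881751 to 82885148, minus strand), was listed at 0 in all 3 KO libraries of day 6. The WT libraries of day 6 had 11.0, 5.07 and 6.86 FPKM. Its values were 2.04, 0.537 and 0.191 FPKM in KO libraries at day 9, against 0.0988, 0.115 and 0.0387 FPKM in WT libraries. The groups stood in the opposite order at day 9, with low levels in both. The difference between the steps was 3.76 ± 0.46 (limma adjusted p = 0.0192), with a KO step of 0.83 (adjusted p = 0.233) and a WT step of -2.94 (adjusted p = 5.99e-04).

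Aplnr encodes the apelin receptor of early mesoderm and vessel progenitors (chromosome 2, 85136225 to 85139923, plus strand). Its levels were 5.29, 3.16 and 2.08 FPKM in KO libraries at day 6, against 24.8, 13.1 and 22.9 FPKM in WT libraries. They were 7.16, 3.56 and 3.10 FPKM in KO libraries at day 9, against 1.06, 1.78 and 1.36 FPKM in WT libraries. KO lay under WT at day 6 and over WT at day 9 with no overlap. The difference between the steps was 3.41 ± 0.48 (limma adjusted p = 0.0303), and nearly all of it was the WT step of -3.11 (adjusted p = 5.95e-04).

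Foxc2, a forkhead factor of paraxial mesoderm and vessels (chromosome 8, 121116171 to 121118895, plus strand), differed from these in that both genotypes moved. It read 0.203, 0.258 and 0.109 FPKM in KO libraries at day 6, against 4.32, 2.15 and 3.45 FPKM in WT libraries. It read 5.46, 2.88 and 2.16 FPKM in KO libraries at day 9, against 0.536, 1.26 and 1.04 FPKM in WT libraries. The order of the groups turned here as well, with no overlap at either day. It rose in KO cells by 1.85 (limma adjusted p = 0.00371), with a WT step of -1.13 (adjusted p = 0.0473), for a difference of 2.99 ± 0.40 (adjusted p = 0.0272).

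Scara3 and Penk, the other genes that passed upward, averaged under 5 FPKM in every group and were named after their values were seen. Scara3, a member of the scavenger receptor family (chromosome 14, 65919394 to 65953935, minus strand), averaged 0.500 ± 0.0882 FPKM in KO and 3.75 ± 0.524 FPKM in WT cells at day 6, and 2.81 ± 0.694 FPKM in KO and 1.53 ± 0.247 FPKM in WT cells at day 9 (SD, n = 3 each). Its groups overlapped at neither day, and both genotypes moved, with a KO step of 1.33 (limma adjusted p = 0.00253) and a WT step of -0.91 (adjusted p = 0.0204). Its difference between the steps was 2.24 ± 0.27 (limma adjusted p = 0.0192). Penk, the precursor of enkephalin peptides (chromosome 4, 4133531 to 4138819, minus strand), averaged 0.339 ± 0.1101 FPKM in KO and 3.44 ± 0.795 FPKM in WT cells at day 6, and 1.01 ± 0.148 FPKM in KO and 0.838 ± 0.286 FPKM in WT cells at day 9 (SD, n = 3 each). Its groups overlapped at day 9 (difference between the steps 1.85 ± 0.27, limma adjusted p = 0.0355). Each of Trh, Cer1, Aplnr, Foxc2, Scara3 and Penk was lower in KO cells at day 6 (limma adjusted p from 0.00633 for Cer1 to 0.0373 for Foxc2), and none of the 6 passed between the genotypes at day 9 (lowest adjusted p = 0.230, for Foxc2). The gaps and steps are parts of the difference by which genes were chosen. Their p-values, here and for genes named below, describe where it arose and are not separate support.

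**Figure D2:**
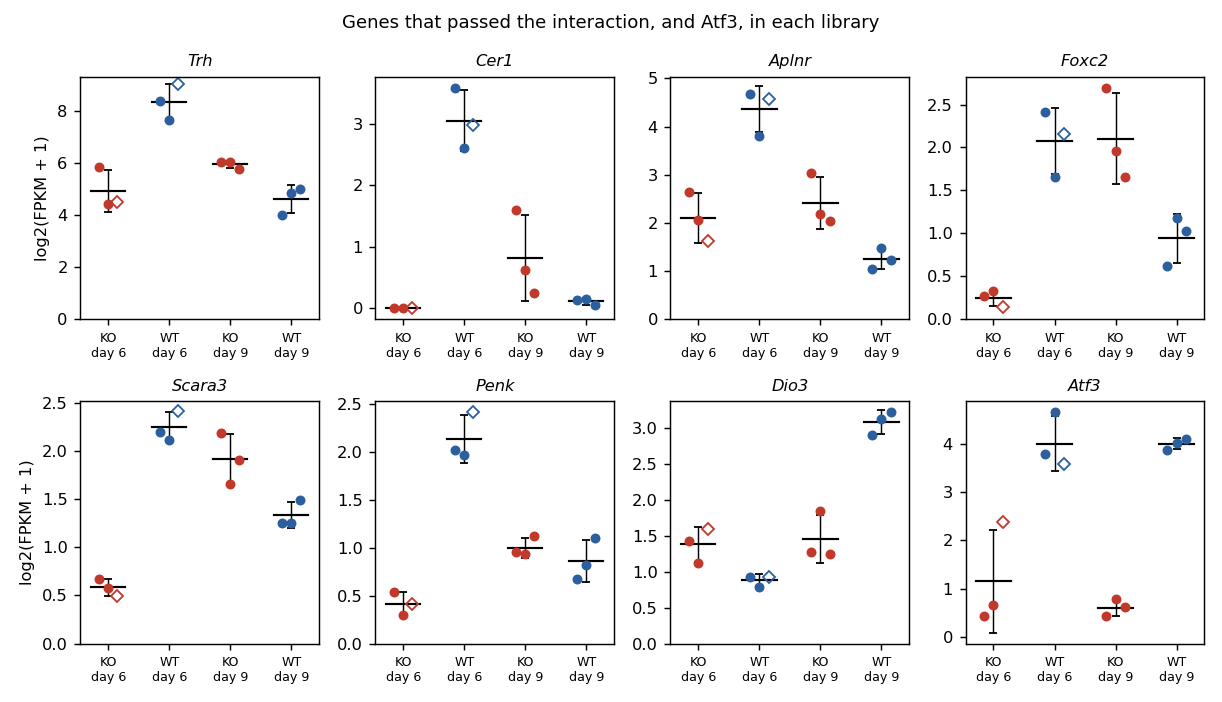
Level of Atf3 and of the 7 genes that passed the comparison of the steps, as log2(FPKM + 1) on the vertical axis, in KO and WT libraries at days 6 and 9. Points are libraries, open diamonds are library 3 of each day 6 group, and bars are mean ± SD (n = 3). KO lies under WT at day 6 in Trh, Cer1, Aplnr, Foxc2, Scara3 and Penk, and the genotypes part at day 9 in Dio3.

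Promoter sequences were looked up because Atf3 binds known motifs. RefSeq promoters (build GRCm38.p6, 250 bases before to 50 after the start) were matched for 3 of the 7 genes, Trh, Cer1 and Dio3, and for 9092 of the 13505 genes tested, with 11573 promoters in all. The letters of the cyclic AMP response element, TGACGTCA, and of the AP-1 site, TGANTCA, were searched on both strands, and the strings do not contain each other. None of the 3 windows held either string. Over the genes tested, 3.04% of promoters held TGACGTCA and 4.61% held TGANTCA. Among genes that passed with 24 libraries, TGANTCA stood in 1 of 68 promoters of genes that moved up (1.47%) and in 5 of 47 of genes that moved down (10.6%), and TGACGTCA in none of either. These are matches of letters, not sites. The windows of Trh (chr6:92244601-92244900, minus strand) and Cer1 (chr4:82885102-82885401, minus strand) are shown for the leading pair of genes, and that of the beta globin gene Hbb-bs (chr7:103827879-103828178, minus strand) for a gene that moved down with 24 libraries and holds the AP-1 letters, which are in capitals.
Trh: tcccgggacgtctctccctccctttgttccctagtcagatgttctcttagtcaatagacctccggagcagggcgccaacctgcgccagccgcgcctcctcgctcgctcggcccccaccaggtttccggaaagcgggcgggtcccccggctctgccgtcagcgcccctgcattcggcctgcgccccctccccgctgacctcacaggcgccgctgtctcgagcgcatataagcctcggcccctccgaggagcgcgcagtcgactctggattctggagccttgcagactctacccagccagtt
Cer1: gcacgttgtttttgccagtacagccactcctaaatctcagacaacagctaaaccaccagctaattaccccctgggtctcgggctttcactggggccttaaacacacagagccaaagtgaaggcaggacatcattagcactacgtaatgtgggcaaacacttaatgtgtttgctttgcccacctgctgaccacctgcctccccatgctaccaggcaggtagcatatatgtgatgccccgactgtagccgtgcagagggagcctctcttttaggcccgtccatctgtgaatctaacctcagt
Hbb-bs: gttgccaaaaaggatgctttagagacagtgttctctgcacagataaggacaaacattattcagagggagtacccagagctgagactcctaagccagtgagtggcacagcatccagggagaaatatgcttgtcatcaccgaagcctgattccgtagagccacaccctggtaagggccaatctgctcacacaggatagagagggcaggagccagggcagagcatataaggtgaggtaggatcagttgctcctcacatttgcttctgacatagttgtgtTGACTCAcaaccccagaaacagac

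Primitive streak genes had their larger median gap at day 6 on the deposited scale. Over the 18 members tested, the median KO minus WT difference was -0.74 at day 6 and 0.17 at day 9, where the medians of all genes were 0.03 and 0.01. Under TPM the list's medians were -0.26 and 0.27, and those of all genes 0.60 and 0.07. All KO values lay under all WT values in 10 of 18 members at day 6 (3.32% of all genes) and in 1 of 18 at day 9 (4.07% of all genes). None of the 18 passed the comparison of the steps with 12 libraries (10 up and 1 down at unadjusted p under 0.05). With 24, 8 passed upward (0.703% of all genes). That upward count was 5 without KO library 3 of day 6, 4 without WT library 3 of day 6 and 6 without both. Between the days, 2 members fell in KO cells (0.815% of all genes fell and 3.86% changed) and 9 fell in WT cells (1.26% of all genes fell and 3.89% changed), and none rose in either.

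T, the factor that marks the streak, read 1.28, 0.164 and 4.35 FPKM in KO libraries at day 6, against 14.4, 16.0 and 16.2 FPKM in WT libraries. It read 16.7, 0.997 and 0.383 FPKM in KO libraries at day 9, against 0.606, 1.10 and 1.10 FPKM in WT libraries. KO library 1 of day 9 was as high as the WT libraries of day 6, KO library 2 of day 9 lay within the WT range of that day and KO library 3 under it. The difference between the steps did not pass with 12 libraries (3.70 ± 1.10, adjusted p = 0.464, and 0.0371 with 24 libraries), and without WT library 3 of day 6 it did not pass with 24 either (adjusted p = 0.0893). Lhx1, a homeobox factor of the organizer and early mesoderm, read 0.793, 0.519 and 0.719 FPKM in KO libraries at day 6, against 4.42, 3.55 and 27.9 FPKM in WT libraries. WT library 3 was far above the other WT libraries of day 6, and KO lay under all of them. Lhx1 passed with 24 libraries (difference between the steps 3.07 ± 0.79, adjusted p = 0.340, and 0.0121 with 24 libraries), also without that library (adjusted p = 7.02e-04). Fgf8, a growth factor of the streak, had 2.94, 0.802 and 2.43 FPKM in KO libraries at day 6, against 5.99, 4.78 and 26.8 FPKM in WT libraries, with WT library 3 again the highest (difference between the steps 2.73 ± 0.74, adjusted p = 0.405, and 0.0223 with 24 libraries).

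Genes of anterior mesendoderm and definitive endoderm held the leading pair, Trh and Cer1, which are 2 of the 21 members tested. With 24 libraries 6 passed upward (0.703% of all genes) and 1 downward (0.407% of all genes). Otx2, a factor of anterior identity that primed epiblast also makes, read 0.284, 0.218 and 0.1999 FPKM in KO libraries at day 6, against 4.101, 3.52 and 13.5 FPKM in WT libraries. It read 3.55, 1.97 and 1.62 FPKM in KO libraries at day 9, against 0.984, 0.805 and 0.845 FPKM in WT libraries. KO lay under WT at day 6 and over WT at day 9 without overlap (difference between the steps 3.30 ± 0.52, adjusted p = 0.0542, and 0.00280 with 24 libraries). It was lower in KO cells at day 6 (-2.49, adjusted p = 0.0333). The list's median KO minus WT difference was -0.45 at day 6 and 0.24 at day 9, but the day 6 median was -0.10 without library 3 of both groups. It was 0.17 after rescaling to TPM, which moves the median of all genes at day 6 to 0.60. The list's median difference between the steps was 0.71 over the 21 members, and -0.36 among members with a mean FPKM of 5 or more.

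Among mesoderm transcription factors, Foxc2 passed with 12 libraries and 5 of 25 passed upward with 24 (0.703% of all genes). The list's median difference between the steps was 0.43, against -0.02 for all genes, and -0.36 among members with a mean FPKM of 5 or more. It was 0.26 without WT library 3 of day 6. Meox1, a somite factor, read 0.124, 0.0243 and 0.134 FPKM in KO libraries at day 6, against 11.4, 3.67 and 0.309 FPKM in WT libraries. It read 10.4, 3.31 and 0.962 FPKM in KO libraries at day 9, against 0.810, 0.942 and 1.24 FPKM in WT libraries. The libraries of a group lay far apart and the groups overlapped at day 9, and the difference did not pass in either fit (3.16 ± 1.003, adjusted p = 0.588, and 0.0502 with 24 libraries).

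In Sfrp1 and Col2a1, also with KO under WT at day 6, the KO step was the larger. Sfrp1, a secreted Wnt inhibitor, read 3.78, 1.25 and 1.68 FPKM in KO libraries at day 6, against 19.8, 13.1 and 17.7 FPKM in WT libraries. It read 21.9, 44.6 and 54.7 FPKM in KO libraries at day 9, against 27.9, 32.0 and 28.02 FPKM in WT libraries. KO lay under WT at day 6, and the groups overlapped at day 9. It rose in KO cells by 3.66 (limma adjusted p = 2.01e-04), with a WT step of 0.78 (adjusted p = 0.223). The difference passed with 24 libraries (2.88 ± 0.49, adjusted p = 0.0679, and 3.50e-04 with 24 libraries). Among Wnt pathway genes, Sfrp1 included, 3 of 35 passed upward with 24 libraries (0.703% of all genes). None of the 35 passed with 12 (7 up and 3 down at unadjusted p under 0.05). Col2a1, the collagen of cartilage and notochord sheath, rose in KO cells by 3.05 (limma adjusted p = 0.00398), with a WT step of -0.42 (adjusted p = 0.605). Its KO libraries of day 9 had 42.8, 12.3 and 7.97 FPKM, against 5.89, 7.20 and 7.40 FPKM in WT libraries. KO thus lay over WT at day 9 without overlap, and KO library 1 was the highest by far (difference between the steps 3.47 ± 0.67, adjusted p = 0.134, and 0.00108 with 24 libraries).

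In the Notch pathway, none of 17 genes passed with 12 libraries (5 up and 0 down at unadjusted p under 0.05). With 24, 2 passed upward (0.703% of all genes), 1 with its gap at each day. Dll3, a Notch ligand of somite-forming mesoderm, averaged 0.706 ± 0.201 FPKM in KO and 6.54 ± 2.40 FPKM in WT cells at day 6 (SD, n = 3 each). It was lower in KO cells at day 6 (-2.09, limma adjusted p = 0.00858), and in WT cells it had a step of -2.63 (adjusted p = 2.95e-04), after which the groups overlapped (difference between the steps 2.27 ± 0.35, adjusted p = 0.0542, and 8.87e-04 with 24 libraries). Hey1, a Notch target of arteries and heart, read 7.08, 7.02 and 4.49 FPKM in KO libraries at day 9, against 1.71, 2.28 and 1.83 FPKM in WT libraries. The groups overlapped at day 6 and not at day 9. It rose in KO cells by 1.89 (limma adjusted p = 0.00114), with a WT step of 0.04 (difference between the steps 1.85 ± 0.33, adjusted p = 0.0921, and 0.0154 with 24 libraries, and 0.0521 with 24 less WT library 3 of day 6).

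Heart muscle genes parted at day 9. Of 30 genes in the cardiac sarcomere list, 24 passed the filter and were tested. Over these 24 members, the median KO minus WT difference was 0.05 at day 6 and 1.31 at day 9. All KO values lay over all WT values in 0 of 24 members at day 6 (4.41% of all genes) and in 17 of 24 at day 9 (6.59% of all genes). Hspb7 averaged 0.341 FPKM in KO and 0.241 FPKM in WT cells at day 6, and 5.74 and 1.27 FPKM at day 9. The filter favours such members, so the shares and counts of this list are not separate support. At day 9, 5 members were higher in KO cells, namely Actc1, Actn2, Hspb7, Myh6 and Myl2 (0.074% of all genes). Between the days 18 members rose in KO cells (3.04% of all genes) and 7 in WT cells (2.64% of all genes). None of the 24 passed the comparison of the steps with 12 libraries (14 up and 0 down at unadjusted p under 0.05). With all 24 libraries, 7 passed upward (0.703% of all genes), and 5 to 7 without library 3 of either or both day 6 groups. The median difference between the steps was 1.56, against -0.02 for all genes.

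Myh6, the atrial myosin heavy chain, read 1.88, 1.53 and 0.539 FPKM in KO libraries at day 6, against 1.49, 1.02 and 1.06 FPKM in WT libraries. It read 24.5, 32.8 and 13.0 FPKM in KO libraries at day 9, against 2.22, 2.21 and 2.51 FPKM in WT libraries. The groups overlapped at day 6, and at day 9 every KO library was far above every WT library. It was higher in KO cells at day 9 (2.79, limma adjusted p = 0.00608). It rose in KO cells by 3.36 (adjusted p = 1.90e-04), with a WT step of 0.60 (adjusted p = 0.280), and the difference passed with 24 libraries (2.75 ± 0.44, adjusted p = 0.0542, and 1.58e-04 with 24 libraries).

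Myl7, the atrial myosin light chain, read 30.5, 14.6 and 4.88 FPKM in KO libraries at day 6, against 31.3, 13.3 and 64.5 FPKM in WT libraries. It read 276, 555 and 145 FPKM in KO libraries at day 9, against 32.9, 47.8 and 77.1 FPKM in WT libraries. The groups overlapped at day 6 and KO lay over WT at day 9. It rose in KO cells by 4.31 (limma adjusted p = 0.00466), with a WT step of 0.70 (adjusted p = 0.551). The difference passed with 24 libraries (3.61 ± 0.97, adjusted p = 0.397, and 0.0189 with 24 libraries), but not without WT library 3 of day 6 (adjusted p = 0.0686). Actc1, cardiac actin, read 382, 302 and 109 FPKM in KO libraries at day 9, against 38.8, 39.7 and 43.3 FPKM in WT libraries. It rose in both genotypes, by 4.83 in KO cells (limma adjusted p = 1.42e-04) and by 2.72 in WT cells (adjusted p = 0.00453), and was higher in KO cells at day 9 (2.49, adjusted p = 0.0419). The difference between the steps of Actc1 passed in neither fit.

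Of the 19 genes tested in a list of cardiac transcription factors and Smyd1, none passed with 12 libraries (5 up and 0 down at unadjusted p under 0.05). With 24, 4 passed, all upward (Tbx5, Myocd, Smyd1 and Tbx1, 0.703% of all genes). Tbx5, Myocd and Smyd1 had their gap at day 9. Tbx1 had it at day 6, with a KO minus WT difference of -1.60, against 0.54 at day 9. The median difference between the steps over the 19 was 0.29, and -0.18 under TPM, where that of all genes was -0.54. It was 0.04 without WT library 3 of day 6. Rbm24, an RNA-binding protein of heart and skeletal muscle, averaged 5.18 ± 2.90 FPKM in KO and 0.843 ± 0.343 FPKM in WT cells at day 9 (SD, n = 3 each, difference between the steps 2.24 ± 0.45, adjusted p = 0.162, and 0.00190 with 24 libraries). Smooth muscle contractile genes had a median of -0.12 over 16 members, whose sign turned without KO library 1 or 2 of day 6 or WT library 3 of day 9, and none passed in either fit (2 up and 1 down at unadjusted p under 0.05). Of 25 endothelial surface genes, Aplnr alone passed, in either fit. The median KO minus WT difference of that list was 0.32 at day 6 and 0.73 at day 9, and all KO values lay over all WT values in 8 of 25 members at day 6 (4.41% of all genes) and in 17 of 25 at day 9 (6.59% of all genes). Kdr, the VEGF receptor of vessel progenitors, rose in KO cells by 1.46 (limma adjusted p = 0.0488), with a WT step of 0.20 (adjusted p = 0.759), but the difference passed in neither fit (1.26 ± 0.52, adjusted p = 0.953, and 0.182 with 24 libraries).

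**Figure D3:**
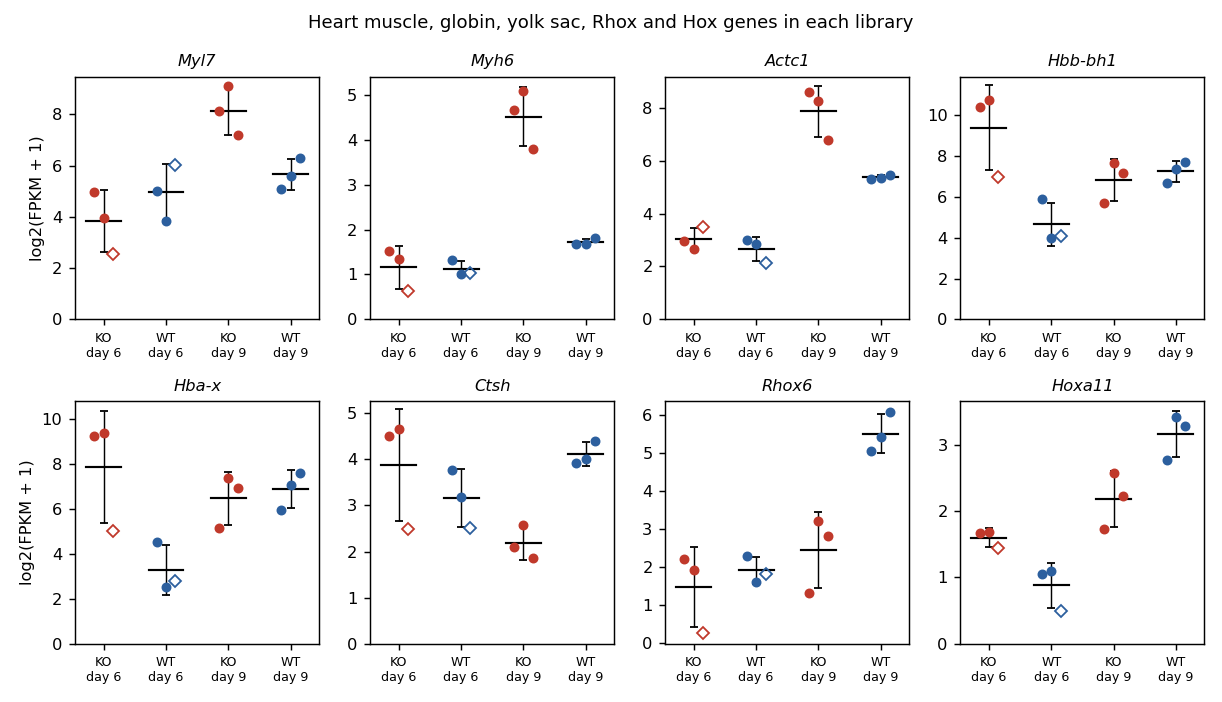
Level of 8 genes as log2(FPKM + 1) on the vertical axis in KO and WT libraries at days 6 and 9. Points are libraries, open diamonds are library 3 of each day 6 group, and bars are mean ± SD (n = 3). Myh6 reaches 24.5, 32.8 and 13.0 FPKM in the KO libraries of day 9, and KO library 3 of day 6 lies far under the other KO libraries in Hbb-bh1 and Hba-x.

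The embryonic globin Hbb-bh1 had the lowest difference between the steps of the 150 genes, with KO levels over WT levels at day 6. Hbb-bh1, an embryonic beta-like globin, read 1376, 1722 and 126 FPKM in KO libraries at day 6, against 57.8, 15.1 and 16.1 FPKM in WT libraries. It read 50.2, 203 and 141 FPKM in KO libraries at day 9, against 103, 163 and 208 FPKM in WT libraries. KO lay over WT at day 6, with KO library 3 far under KO libraries 1 and 2, and the groups overlapped at day 9. The KO step was -2.56 (limma adjusted p = 0.163) and the WT step 2.60 (adjusted p = 0.130), and the difference passed with 24 libraries (-5.15 ± 1.26, adjusted p = 0.285, and 0.0160 with 24 libraries) but not without WT library 3 of day 6 (adjusted p = 0.0551). Hba-x, the embryonic alpha-like globin, read 599.6, 668 and 31.1 FPKM in KO libraries at day 6, against 22.1, 4.67 and 5.87 FPKM in WT libraries. Its order was the same (difference between the steps -5.01 ± 1.48, adjusted p = 0.457, and 0.0380 with 24 libraries, and 0.111 with 24 less WT library 3 of day 6). Hbb-y, another embryonic globin, had a difference of -3.12 that passed in neither fit (adjusted p = 0.290 with 24 libraries), and its groups overlapped at both days. Hba-a1 and Hbb-bs, adult-type globins, had differences of -4.54 and -3.59, of which Hbb-bs passed with 24 libraries (adjusted p = 0.0234) but not without WT library 3 of day 6 (adjusted p = 0.0600). Hba-a1 with Hba-a2, and Hbb-bs with Hbb-bt, are near-identical copies, so their values are uncertain. Of 20 globin and erythroid genes none passed with 12 libraries (0 up and 6 down at unadjusted p under 0.05). With 24, 3 passed downward (0.407% of all genes), 10 without KO library 3 of day 6 and 0 without WT library 3 of day 6. The list's median KO minus WT difference was 1.06 at day 6 and -0.01 at day 9.

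Genes of yolk sac and visceral endoderm, the absorbing epithelium around the early embryo, had a median difference between the steps of -1.004 over 33 members, 29 of them below 0 (48.1% of all genes lay above 0). None passed with 12 libraries (0 up and 10 down at unadjusted p under 0.05). With 24, 3 passed downward (Ctsh, Fgb and Mttp, 0.407% of all genes). That count was 15 without KO library 3 of day 6, 1 without WT library 3 of day 6 and 16 without both. All KO values lay under all WT values in 3 of 33 members at day 6 (3.32% of all genes) and in 16 of 33 at day 9 (4.07% of all genes). Ctsh, a lysosomal cysteine protease, read 21.7, 24.2 and 4.61 FPKM in KO libraries at day 6, against 12.7, 8.12 and 4.74 FPKM in WT libraries. It read 3.29, 4.96 and 2.64 FPKM in KO libraries at day 9, against 14.2, 15.2 and 20.2 FPKM in WT libraries. The groups overlapped at day 6 and KO lay under WT at day 9 (difference between the steps -2.66 ± 0.71, adjusted p = 0.397, and 0.0170 with 24 libraries, and 0.0600 with 24 less WT library 3 of day 6). Apom, a lipoprotein component, had a difference of -3.35 that passed in neither fit, and read 106, 82.6 and 5.68 FPKM in KO libraries at day 6, with library 3 far under the others. Lgals2, a galectin outside these lists, had 2.21, 6.89 and 3.45 FPKM in KO libraries at day 9, against 13.8, 19.1 and 31.9 FPKM in WT libraries (difference between the steps -3.59 ± 1.02, adjusted p = 0.433, and 0.0259 with 24 libraries, and 0.0945 with 24 less WT library 3 of day 6).

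Trophoblast and placenta genes had their gap at day 9. Over 18 members the median KO minus WT difference was -0.03 at day 6 and -0.77 at day 9. The day 6 median was 0.38 under TPM, where that of all genes was 0.60. It was 0.04 with equal sums outside the rRNA-type genes, where that of all genes was 0.13. All KO values lay under all WT values in 4 of 18 members at day 6 (3.32% of all genes) and in 14 of 18 at day 9 (4.07% of all genes). None passed the comparison of the steps with 12 libraries (1 up and 9 down at unadjusted p under 0.05). With 24, 3 passed downward (Rhox6, Rhox9 and Plac1, 0.407% of all genes). Eomes, which is also a streak gene, passed upward (0.703% of all genes). The downward count was 5 without KO library 3 of day 6 and 2 without WT library 3 of day 6. Rhox9, an X-linked homeobox gene of placenta and germ line, read 0.271, 1.39 and 1.78 FPKM in KO libraries at day 9, against 5.65, 8.93 and 10.4 FPKM in WT libraries. The groups overlapped at day 6, and KO lay under WT at day 9 (-2.16, limma adjusted p = 0.0252). It rose in WT cells by 2.499 (adjusted p = 0.00160), with a KO step of 0.38 (difference between the steps -2.12 ± 0.46, adjusted p = 0.183, and 0.00280 with 24 libraries). Rhox6, of the same gene cluster, read 1.47, 8.32 and 6.08 FPKM in KO libraries at day 9, against 32.1, 41.8 and 66.5 FPKM in WT libraries. It too lay under WT in all KO libraries of day 9 and overlapped at day 6 (difference between the steps -2.63 ± 0.78, adjusted p = 0.464, and 0.0372 with 24 libraries, and 0.0922 with 24 less WT library 3 of day 6). Nup62cl, an X-linked gene outside the lists, lay over WT in all KO libraries of day 6 and under WT in all of day 9 (difference between the steps -2.58 ± 0.53, adjusted p = 0.167, and 0.00366 with 24 libraries).

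Of 27 Hox and Cdx genes, which set position along the body axis, none passed with 12 libraries (5 up and 13 down at unadjusted p under 0.05). With 24, 8 passed downward (0.407% of all genes), namely Hoxa9, Hoxa10, Hoxa11, Hoxa13, Hoxc10, Hoxd8, Hoxd10 and Hoxd13. Hoxb1 passed upward (0.703% of all genes). Hoxa11, a gene of limb and posterior mesoderm, read 2.18, 2.23 and 1.71 FPKM in KO libraries at day 6, against 1.08, 1.14 and 0.401 FPKM in WT libraries. It read 2.32, 4.93 and 3.70 FPKM in KO libraries at day 9, against 5.78, 9.70 and 8.71 FPKM in WT libraries. KO lay over WT at day 6 and under WT at day 9 without overlap. It rose in WT cells by 2.27 (limma adjusted p = 8.00e-04), with a KO step of 0.58 (adjusted p = 0.345), and the difference passed with 24 libraries (-1.70 ± 0.38, adjusted p = 0.192, and 0.00272 with 24 libraries). The list's median difference between the steps was -0.86.

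Dio3 was the single gene that passed downward with 12 libraries. It encodes the deiodinase that inactivates thyroid hormone and lies in an imprinted region (chromosome 12, 110279068 to 110281097, plus strand). It read 1.68, 1.17 and 2.03 FPKM in KO libraries at day 6, against 0.909, 0.729 and 0.904 FPKM in WT libraries. It read 1.42, 2.60 and 1.38 FPKM in KO libraries at day 9, against 6.49, 7.70 and 8.36 FPKM in WT libraries. KO lay over WT at day 6 by a small margin and far under WT at day 9. It was lower in KO cells at day 9 (-1.63, limma adjusted p = 0.0103). It rose in WT cells by 2.2 (adjusted p = 2.95e-04), with a KO step of 0.08 (adjusted p = 0.915), for a difference of -2.12 ± 0.30 (adjusted p = 0.0303). Dlk1, an imprinted growth gene of the same region, read 2.82, 6.56 and 4.92 FPKM in KO libraries at day 9, against 24.1, 56.7 and 60.7 FPKM in WT libraries. It was lower in KO cells at day 9 (-3.01, limma adjusted p = 0.0123) and lay under WT in all KO libraries of day 6 too, and its difference between the steps passed in neither fit (-1.29 ± 0.58, adjusted p = 0.953, and 0.249 with 24 libraries).

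The comparisons that make up the steps gave few genes between genotypes and more between days. At day 6, 15 genes passed between KO and WT cells (0.111%, with 1 higher, 0.0074%, and 14 lower, 0.104%), and at day 9, 21 did (0.155%, with 10 higher, 0.074%, and 11 lower, 0.0815%). The day 6 count was 0 without KO library 2 or WT library 1 of day 6 (428 and 568 at an unadjusted p under 0.05), 4 without WT library 3 and 33 without KO library 3 of day 6, and 7 without KO library 2 of day 9 and 8 without any 1 WT library of day 9. The day 9 count was 5 and 11 without KO libraries 1 and 2 of day 9, 12, 2 and 4 without WT libraries 1, 2 and 3 of day 9, and 10, 10 and 13 without KO library 2, WT library 1 and WT library 2 of day 6. Between the days, 521 genes changed in KO cells (411 higher and 110 lower, or 299 and 25 under TPM and 653 and 79 with equal sums outside the rRNA-type genes) and 526 in WT cells (356 higher and 170 lower, or 447 and 27 under TPM and 561 and 120 with these equal sums). TPM moved the median step of all genes to 0.36 in KO and 0.90 in WT cells. The KO count was 286 and 251 without KO libraries 1 and 2 of day 6, and 338 and 298 without KO libraries 2 and 3 of day 9. The WT count was 207, 1176 and 216 without WT libraries 1, 2 and 3 of day 6, and 298, 128 and 264 without WT libraries 1, 2 and 3 of day 9.

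**Figure D4:**
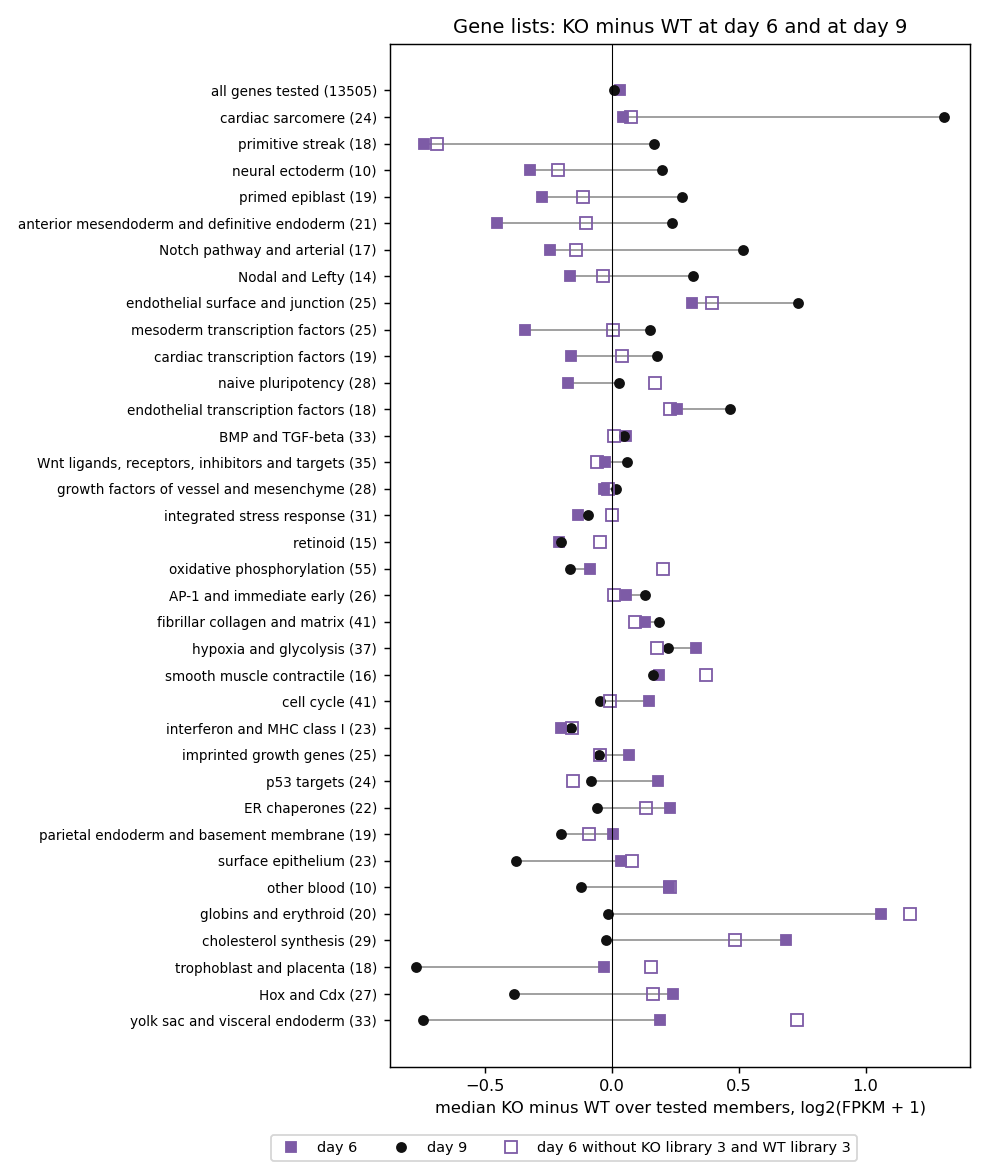
Median KO minus WT difference over the tested members of each gene list, in log2(FPKM + 1) on the horizontal axis, at day 6 (filled squares), at day 9 (circles) and at day 6 without library 3 of KO and WT (open squares). All genes stand at the top. Cardiac sarcomere has 0.05 at day 6 and 1.31 at day 9, and globins and erythroid genes have 1.06 at day 6 and -0.01 at day 9.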

How the data were processed

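RNA-seq of Atf3 KO and WT cells was deposited as 1 table of FPKM per gene and library. Per the submitters' processing notes, reads were handled with HISAT2 2.2.1 and build mm10, and the tools named further are featureCounts 2.0.1, Trimmomatic 0.39, FastQC 0.11.9, DESeq2 1.30.1 and R 4.1.0, and no strand setting is given in the sources used here. Of values equal to 50 reads or fewer, 95.5% to 96.9% per library came out whole within 0.05 when FPKM was multiplied by GENCODE vM21 exon length, which gave the read totals. Groups came from the sample labels. log2(FPKM + 1) was tested with limma 3.58.1 in R 4.3.3 (trended prior, 4 groups, 12 libraries, 8 residual degrees of freedom) with Benjamini-Hochberg adjustment over 13505 genes. The 12 highest and 12 lowest differences among genes with a group mean of at least 5 FPKM, filled up from an unadjusted p under 0.05, 6 genes per day class and 2 to 4 genes per list were named. The members and lists were chosen with earlier results of these data known. Alternatives were another pseudocount, filters, scalings, voom on recovered reads, library weights, all 24 libraries and leaving out libraries.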

Additional observations from a re-analysis of the deposited data

Results flagged for a closer look

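The step between day 6 and day 9 differed between KO and WT cells, by the test of the difference itself, in 7 genes. The KO step minus the WT step was 4.76 for Trh, 3.76 for Cer1, 3.41 for Aplnr, 2.99 for Foxc2, 2.24 for Scara3, 1.85 for Penk and -2.12 for Dio3, in log2(FPKM + 1).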

How the results depend on the processing

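Of the 7 genes, each kept its sign in every alternative in which it was measured, which their choice from these same libraries favours. Of these genes, 1 passed under TPM and 1 with no filter. The count of genes whose steps differed was 150 with 24 libraries, 1207 with library weights (579 higher and 628 lower), 1 with a mean FPKM of 5 or more, 1 under TPM, 13 with equal sums and 14 without library 3 of both day 6 groups. With 24 libraries it was 224 without KO library 3 of day 6, 91 without WT library 3 of day 6 and 208 without both, alternatives chosen after seeing the data. The library weights were lowest for KO library 3 of day 6, at 0.167. They were 10.5 for WT library 2 of day 9, 6.68 for KO library 2 of day 6 and 5.42 for WT library 1 of day 6. In these groups the weighted counts rest largely on 1 library. The day 6 count was 109 with 24 libraries, 2619 with weights, 2 with a mean FPKM of 5 or more, 1 under TPM, 9 with voom, and with 24 libraries 137, 56 and 114 without the same libraries. The day 9 count was 148, 305, 3, 5 and 9 in that order of settings, 0 with a pseudocount of 0.1 (417 at an unadjusted p under 0.05), 34 without library 3 of both groups, and with 24 libraries 192, 168 and 230. The KO step count was 1292 with 24 libraries, 3370 with weights, 152 with a mean FPKM of 5 or more, 324 under TPM, 824 without library 3 of both groups, and with 24 libraries 1952, 1457 and 2523. The WT step count was 2064, 7502 and 190 in that order, and with 24 libraries 2860, 851 and 1192. Leaving out 1 library gave 0 to 38 genes for the steps, 0 to 33 at day 6, 2 to 29 at day 9, 251 to 597 for the KO step and 128 to 1176 for the WT step. With the replicate number as a block these counts were 0, 5, 8, 309 and 300, and with the block within each day 0, 0, 0, 19 and 0 (547 and 528 genes had an unadjusted p under 0.05 for the steps). Same-numbered KO and WT libraries correlated at 0.281, -0.271 and -0.487 at day 6 and at 0.201, 0.184 and -0.481 at day 9. Same-numbered libraries of day 6 and day 9 correlated at -0.156, 0.332 and 0.4 in KO cells, and at -0.248, -0.395 and 0.421 in WT cells. With 3 libraries per group these values do not settle whether the numbers pair the libraries. Atf3 turned to 0.284 without library 3 of both day 6 groups and to 0.0700 without that of KO (leaving out 1 library, -0.90 to 0.0700), and Sall4 to -0.175, Hsp90b1 to 0.155, Kif11 to 0.22, Hmmr to 0.31 and Mdm2 to 0.0687 without both. The cause of these shifts was not tested. WT library 3 of day 6 held 4272086 reads outside the rRNA-type genes, so its low values rest on few reads. Leaving out 1 library, Scara3 lost its call in 5 of 12 fits, Cer1 in 6, Foxc2 in 7, Trh and Aplnr in 8, and Penk and Dio3 in 9. Of 35 list medians, 9 had the other sign under TPM and 7 without library 3 of both day 6 groups.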

Other observations

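Cholesterol synthesis genes had a median difference between the steps of -0.74 over 29 members, 28 of them below 0, and none passed with 12 (0 up and 3 down at unadjusted p under 0.05) or 24 libraries. Their median KO minus WT difference was 0.69 at day 6 and -0.02 at day 9, and all KO values lay over all WT values in 12 of 29 members at day 6 (4.41% of all genes). Without KO library 3 of day 6 the median difference between the steps was -0.46 and the day 6 median 0.44. Under TPM with all 12 libraries the same medians were -1.31 and 1.29, where those of all genes were -0.54 and 0.60. Hmgcs1, the enzyme that makes HMG-CoA for this pathway, read 21.5, 33.8 and 129 FPKM in KO libraries at day 6, against 13.3, 23.1 and 11.5 FPKM in WT libraries. It read 48.9, 29.9 and 39.2 FPKM in KO libraries at day 9, against 60.1, 36.1 and 24.9 FPKM in WT libraries. KO library 3 of day 6 was the highest of the 12 libraries, and the groups overlapped at both days.

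Several lists of general cell state lay near the background of all genes, -0.02. The median difference between the steps was 0.02 for the integrated stress response, -0.07 for AP-1 and immediate early genes, -0.12 for cell cycle genes and -0.12 for hypoxia and glycolysis genes, each with the other sign in at least 1 alternative, and no member of these 4 lists passed with 12 or 24 libraries. Hypoxia and glycolysis genes had 1 up and 3 down at unadjusted p under 0.05, and AP-1 and immediate early genes 0 up and 1 down. ER chaperones lay lower, at -0.33 (18 of 22 below 0), as did p53 targets, at -0.29 (17 of 24 below 0). No member of either passed with 12 or 24 libraries.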
